A study of Mus musculus with 19 samples.

Results

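Messenger RNA was described here for 10 genes of epithelial cells in mouse embryonic stem (ES) cells and cells derived from them: the stratified keratins Krt5, Krt14, Krt15, Krt1, Krt10 and Krt4, the simple keratins Krt8, Krt18 and Krt19, and the transcription factor Trp63. They were chosen by gene symbol, alone or inside a joined name of overlapping genes, and all 10 stood alone among the 22756 rows of each gene table. The ES cells carried a destabilised green fluorescent protein (GFP) at Rex1 (Zfp42), a gene that naive ES cells express and lose when they differentiate. Cells differentiated for 2 days in serum medium were sorted for absence of GFP and of SSEA1, a surface sugar of undifferentiated mouse ES cells. They then stayed in the same medium up to day 15 with or without AICAR, a compound that activates the energy sensor AMPK in cells. The study asked about gene expression during differentiation and during the return of GFP in AICAR.

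All 19 libraries came from this 1 reporter line, and every group below therefore shares the Rex1 reporter. Colony lines (8 libraries, numbered 1, 3, 4, 5, 6, 7, 9 and 10) were grown from picked GFP-positive colonies of AICAR cultures, and sorted lines (2 libraries) from GFP-positive cells sorted out of AICAR cultures. All lines grew in Lif with 2i, a pair of inhibitors of Mek and Gsk3 in which ES cells remain naive. AICAR GFP-positive cells (3 libraries), AICAR GFP-negative cells (1 library) and unfractionated AICAR cells (1 library) were taken after AICAR treatment to day 15. The remaining groups had 1 library each: undifferentiated ES cells in Lif and 2i, cells at day 2, cells at day 2 whose title names the sort for SSEA1-GFP- (day-2 sorted cells), and the day-15 cells that had no AICAR. Groups follow the sample titles, and some label fields differ from them: the first day-2 library is also marked as sorted, the AICAR fractions are marked as unsorted, and the unfractionated AICAR library is marked as GFP negative. The labels do not say whether replicates were separate cultures, so the spread between libraries may be technical.

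Keratins build the intermediate filaments of epithelial cells, and each filament needs a type I keratin (here Krt10, Krt14, Krt15, Krt18 and Krt19) paired with a type II keratin (here Krt1, Krt4, Krt5 and Krt8). Krt8 with Krt18 is the first pair of the embryo and is made in trophoblast, extraembryonic endoderm and simple epithelia, with Krt19 as a second partner. Krt5 with Krt14 or Krt15 marks the basal layer of stratified epithelia such as epidermis, Krt1 with Krt10 marks the layers above it, and Krt4 marks the upper layers of wet linings such as the oesophagus. Trp63, a relative of p53, is needed to form stratified epithelium and is made in its basal cells.

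Libraries held 5771671 to 14233421 reads in genes, and levels are given as CPM, the reads of a gene scaled by its library's total to a common size. The file headers name 2 sequencing projects, of which the second holds only AICAR GFP-positive replicates 1 and 2, at 12751260 and 14233421 reads, and the first holds the other 17 libraries, at up to 8262357. AICAR GFP-positive replicate 3, whose title has no number, stood apart from replicates 1 and 2: the chi-square per degree of freedom between libraries was 47.4 and 44.2 for pairs with it, against 9.84 between replicates 1 and 2 and 1.89 to 13.9 among the lines, where 1 is counting noise. Markers of parietal endoderm summed to 13163 CPM in replicate 3, against 573 and 1443 CPM in replicates 1 and 2, and markers of visceral endoderm to 1304 CPM, against 169 and 167 CPM. Markers of naive ES cells summed to 3270 CPM in replicate 3, and to 4240 and 4061 CPM in replicates 1 and 2. The part of these cells and of the sequencing project in the results below was not tested. Tests of the 10 genes and list counts that include AICAR GFP-positive cells are given with all 3 libraries and without replicate 3. Values of single list genes are from all 3 libraries unless stated. Within the first project replicate 3 is a single library, so its values there are described and not tested. In bulk RNA, fewer cells of a type and less RNA per cell cannot be told apart.

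Sequence before the start site is shown for 1 basal, 1 suprabasal and 1 simple keratin, to show 1 gene of each class. RefSeq (build GRCm38.p6) gave windows for 5 of the 10 genes, and shown are the 3 whose RefSeq start lay within 50 bases of the GENCODE start of the longest transcript. Each line holds the 250 bases before the start, 5′ to 3′, on the strand of the gene: chr15:101712906-101713155 on the minus strand for Krt5, chr11:99389365-99389614 on the minus strand for Krt10, and chr15:102027966-102028215 on the plus strand for Krt18. Capitals mark matches to 1 of 5 motifs searched on both strands.
Krt5: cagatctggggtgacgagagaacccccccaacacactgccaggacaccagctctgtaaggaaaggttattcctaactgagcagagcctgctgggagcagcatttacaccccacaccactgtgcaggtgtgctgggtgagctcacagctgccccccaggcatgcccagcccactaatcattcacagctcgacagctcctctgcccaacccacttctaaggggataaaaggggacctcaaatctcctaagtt
Krt10: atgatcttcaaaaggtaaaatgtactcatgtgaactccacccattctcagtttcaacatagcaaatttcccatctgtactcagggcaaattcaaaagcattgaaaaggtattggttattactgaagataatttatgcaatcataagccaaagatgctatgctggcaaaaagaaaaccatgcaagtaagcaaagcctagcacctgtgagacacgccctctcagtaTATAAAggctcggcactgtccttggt
Krt18: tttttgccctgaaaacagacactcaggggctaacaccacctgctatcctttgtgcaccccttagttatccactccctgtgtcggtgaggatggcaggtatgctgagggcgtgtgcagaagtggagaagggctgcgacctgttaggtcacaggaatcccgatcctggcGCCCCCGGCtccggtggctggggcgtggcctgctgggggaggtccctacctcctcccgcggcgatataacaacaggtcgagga
The motifs were a TATA box (TATAAA), a GC box (GGGCGG), an AP-1 site (TGANTCA), an AP-2 site (GCCNNNGGC) and a p53-family pair of sites (CATG, 6 bases of any kind, then CATG), and no matches overlapped. Krt10 held the TATA box, whose first base lay 26 bases before the start. Krt18 held the AP-2 letters, from 83 bases before the start, and the Krt5 window held none of the 5. Among 32817 RefSeq windows of the same length, 12.4% held the TATA box, 32.7% the GC box, 6.75% the AP-1 site, 13.7% the AP-2 site and 0.488% the p53-family pair.

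Stratified keratins and Trp63 were abundant in 1 library of the 19, the day-15 cells without AICAR. Among the basal keratins there, Krt5 stood at 734 CPM (5662 reads, exact Poisson 95% interval 715 to 753 CPM), Krt14 at 385 CPM (2973 reads) and Krt15 at 238 CPM (1839 reads). The suprabasal pair Krt1 and Krt10 stood at 205 and 194 CPM (1578 and 1493 reads), Krt4 at 203 CPM (1568 reads), and Trp63 at 22.3 CPM (172 reads, 19.1 to 25.9 CPM). Such intervals cover counting error only, as PCR copies of a molecule could not be told from separate molecules, and 1 library gives no spread between cultures. Keratins of the basal and suprabasal layers were thus present together in this library, and wet linings were represented by Krt4 alone.

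Before day 15 these genes were at or near the detection limit. Krt5 had 0 reads in undifferentiated cells, 3 reads in day-2 cells and 5 reads in day-2 sorted cells, while Krt14 had 3 reads in each of them. Krt15 had 0 reads in all of these libraries, and Trp63 had 0, 0 and 1 reads. Krt10 was the exception among stratified keratins, with reads in all 19 libraries: 5 reads (0.734 CPM) in undifferentiated cells, 10 reads (1.31 CPM) in day-2 cells and 15 reads (2.25 CPM) in day-2 sorted cells. Day-15 cells exceeded undifferentiated cells at least 1667-fold for Krt5, at least 541-fold for Krt15, at least 465-fold for Krt1 and at least 50.6-fold for Trp63, each against a floor of 3 reads. Krt10 was 264-fold higher in day-15 cells than in undifferentiated cells (counting interval 113 to 813).

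All 10 genes were more than 2-fold higher in day-15 cells without AICAR than in undifferentiated cells, where 31.8% of the 9790 features with at least 100 reads in 1 of the libraries were. The count was also 10 of 10 against day-2 sorted cells, the cells from which the day-15 culture was grown, with 29.7% of 9758 features. These pairs of single libraries have no replicate check and therefore no p-value. The stratified keratins and Trp63 had 0 to 5 reads in undifferentiated cells and 0 to 15 reads in day-2 sorted cells. They could therefore meet the rule of 100 reads only at day 15, which fixed their direction in these counts.

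**Figure D1:**
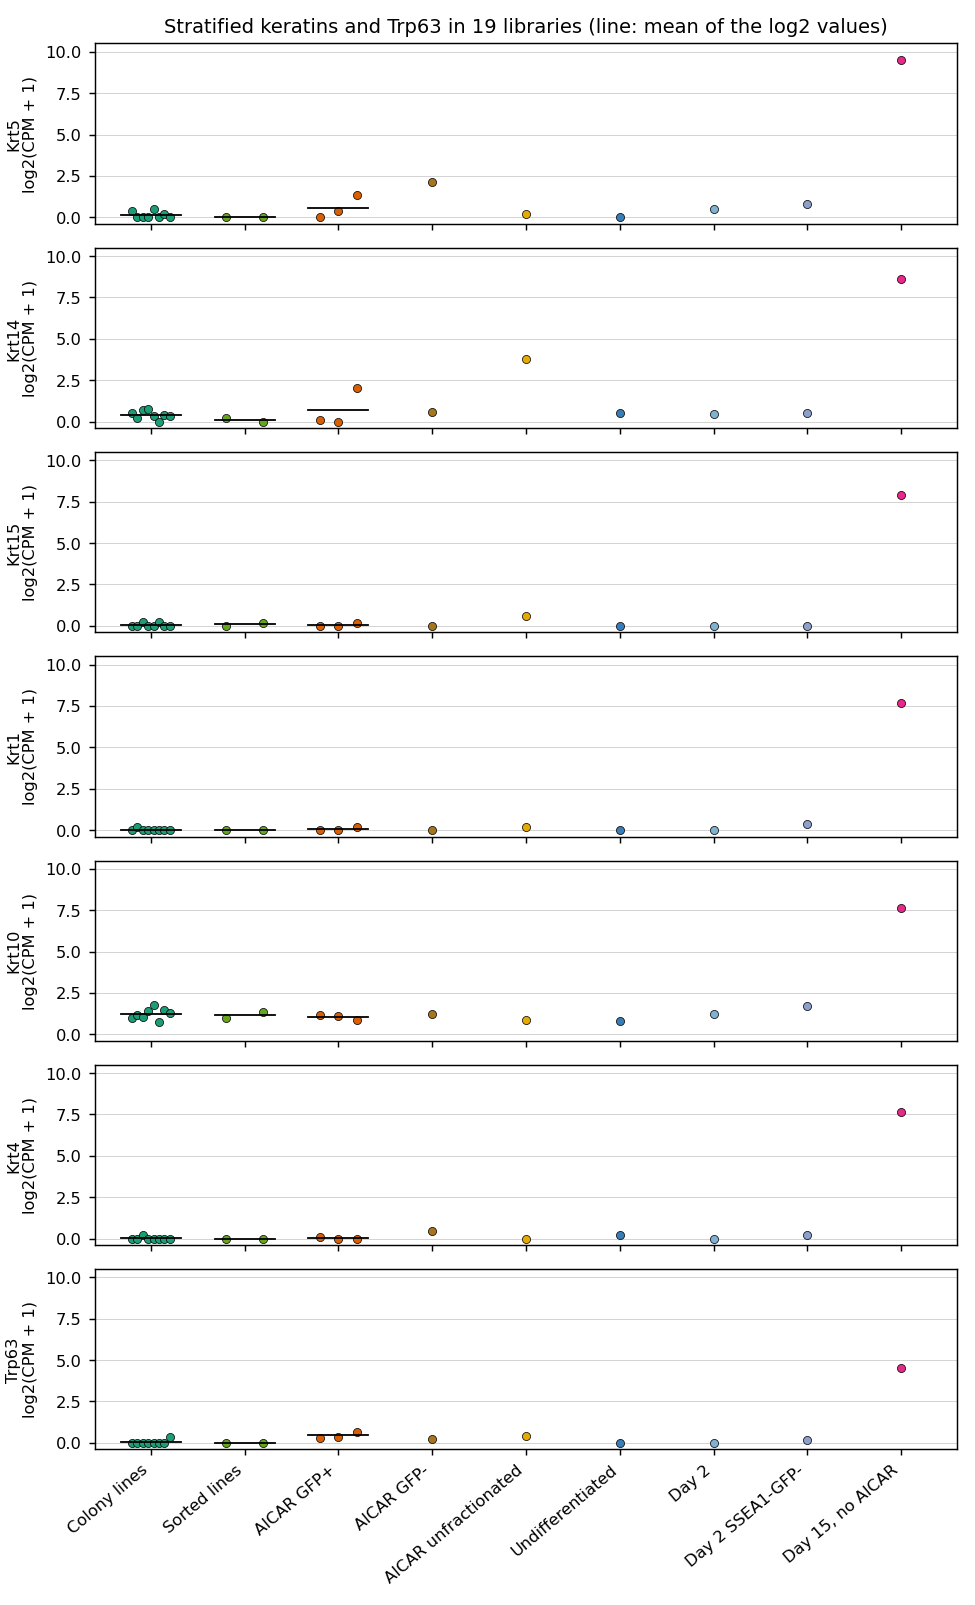
Levels of Krt5, Krt14, Krt15, Krt1, Krt10, Krt4 and Trp63 as log2(CPM + 1) in each of the 19 libraries (points), by group, with a line at the mean of the log2 values where a group has more than 1 library. Day-15 cells without AICAR, at the right, stand above every other library in all 7 panels, and among the rest Krt14 in unfractionated AICAR cells reached 12.9 CPM and Krt5 in AICAR GFP-negative cells 3.47 CPM.

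In AICAR cultures at the same day the stratified genes were far below their levels without AICAR, and most were near the detection limit. Krt14 in unfractionated AICAR cells and Krt5 in AICAR GFP-negative cells stood above that limit. Krt5 had 20 reads (3.47 CPM) in AICAR GFP-negative cells and 1 read in unfractionated AICAR cells, against 5662 reads in day-15 cells without AICAR. Krt14 had 3 reads in AICAR GFP-negative cells and 81 reads (12.9 CPM, 10.2 to 16.0 CPM) in unfractionated AICAR cells, against 2973 reads in day-15 cells without AICAR. Of these AICAR libraries, the GFP-negative one thus had more reads of Krt5 than of Krt14, and the unfractionated one the reverse. Krt15, Krt1, Krt4 and Trp63 had 0, 0, 2 and 1 reads in AICAR GFP-negative cells and 3, 1, 0 and 2 reads in unfractionated AICAR cells. Krt10 stayed near its level in ES cells, with 8 reads (1.39 CPM) in AICAR GFP-negative cells and 5 reads (0.797 CPM) in unfractionated AICAR cells, against 1493 reads (194 CPM) in day-15 cells without AICAR.

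Against day-15 cells without AICAR, 9 of the 10 genes were more than 2-fold lower in AICAR GFP-negative cells, where 19.3% of 9493 features were, and 8 of 10 were in unfractionated AICAR cells, where 14.4% of 9607 features were. The stratified keratins and Trp63 had 0 to 20 reads in AICAR GFP-negative cells and 0 to 81 reads in unfractionated AICAR cells. They met the rule on read numbers only through the day-15 library without AICAR, which favoured a call of lower. Their part of these counts is therefore not comparable with the shares of all features. Krt5 was 212-fold lower in AICAR GFP-negative cells (counting interval 137 to 347). In unfractionated AICAR cells Krt14 was 29.9-fold lower (24.0 to 37.7) and Krt4 was at least 425-fold lower, against the floor. The genes that were not past 2-fold were simple keratins: Krt8 in AICAR GFP-negative cells, and Krt8 and Krt18 in unfractionated AICAR cells.

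AICAR GFP-positive cells were the group with replicates and allowed a test against day-15 cells without AICAR. Krt5 had 0, 4 and 13 reads in AICAR GFP-positive replicates 1, 2 and 3 (0, 0.281 and 1.57 CPM), against 734 CPM in day-15 cells without AICAR. Krt14 had 1, 0 and 26 reads in the same replicates (0.0784, 0 and 3.15 CPM), against 385 CPM in day-15 cells without AICAR. Trp63 had 3, 4 and 5 reads in them (0.235, 0.281 and 0.605 CPM), against 22.3 CPM in day-15 cells without AICAR. Replicate 3 was the highest of the 3 libraries for each of these genes, and all 3 libraries lay below the day-15 library for all 10 genes. Krt15, Krt1 and Krt4 had 1 read each over the 3 libraries, and Krt10 averaged 1.10 ± 0.22 CPM (SD, n = 3), with replicate 3 the lowest at 0.847 CPM.

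By the edgeR quasi-likelihood test with Benjamini-Hochberg adjustment over 14857 features, 7 of the 10 genes were lower in AICAR GFP-positive cells than in day-15 cells without AICAR, while 23.2% of all features tested were lower. The 7 were the 6 stratified keratins and Trp63. Krt15, Krt1, Krt4 and Trp63 were not tested against AICAR GFP-negative or undifferentiated cells for lack of reads. They thus entered here through the day-15 library, which favoured a call of lower. Krt10 fell by 7.33 ± 0.226 on the log2 scale (SE; edgeR adjusted p = 0.00165) and Krt5 fell by 10.39 ± 0.910 (edgeR adjusted p = 0.00322). Krt14 fell by 8.74 ± 1.28 (edgeR adjusted p = 0.00780), and Trp63 fell by 5.86 ± 0.524 (edgeR adjusted p = 0.00327). Fitted changes of Krt15, Krt1 and Krt4 rest on 1 read each in the AICAR cells, and the ratios were 8404-fold (counting interval 1506 to 332120), 7211-fold (1292 to 285009) and 7166-fold lower (1284 to 283204), with an edgeR adjusted p of 0.00165 each. The fit takes the single day-15 library to vary like the AICAR GFP-positive libraries. Without replicate 3 all 10 genes passed, including Krt8, Krt18 and Krt19. In replicates 1 and 2 Krt5 had 0 and 4 reads and Krt14 had 1 and 0 reads. Without replicate 3 both therefore also entered through the day-15 library. By DESeq2 with all 3 libraries 6 passed, with Krt14 at an adjusted p of 0.0512.

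**Figure D2:**
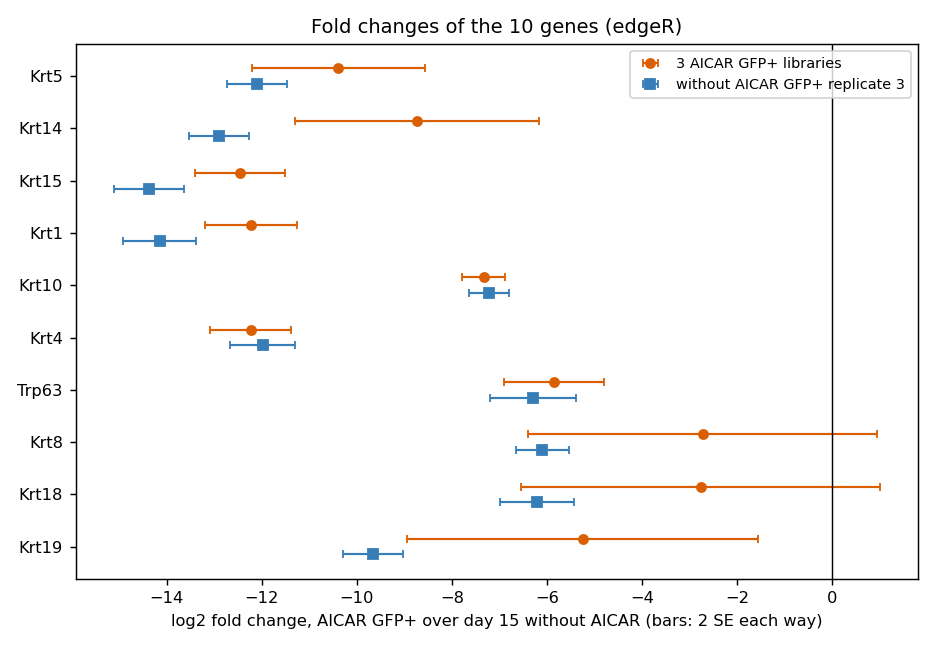
Log2 fold changes of the 10 genes in AICAR GFP-positive cells over day-15 cells without AICAR, from edgeR, with bars of 2 standard errors each way. Circles use the 3 AICAR GFP-positive libraries and squares leave out replicate 3; the circles of Krt8 and Krt18 have bars that cross 0, and their squares lie at -6.10 and -6.21.

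The simple keratins followed another course, rising by day 2. At day 15 they were above the day-2 libraries with and without AICAR, except in AICAR GFP-positive replicates 1 and 2. Krt19 was lower in every AICAR library than in day-15 cells without AICAR, and Krt8 and Krt18 in all but unfractionated AICAR cells. Krt8 stood at 8.66 CPM in undifferentiated cells (59 reads), 31.5 CPM in day-2 cells (241 reads), 27.0 CPM in day-2 sorted cells (180 reads) and 459 CPM in day-15 cells without AICAR (3539 reads). Krt18, its type I partner, stood at 3.38, 39.6, 39.7 and 350 CPM in the same order (23, 303, 265 and 2698 reads). Krt19 stood at 1.61, 5.62, 6.15 and 291 CPM (11, 43, 41 and 2247 reads). Levels were thus higher at day 2 than in undifferentiated cells and higher again at day 15 without AICAR. The day-2 libraries with and without a sort in their title had close levels of all 3 genes.

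Of these genes, Krt8 and Krt18 had at least 100 reads in 1 of the day-2 and undifferentiated libraries. Both were more than 2-fold higher in day-2 cells, where 8.28% of 8174 features were, and both reached 100 reads only there. Krt8 was 3.63-fold higher in day-2 cells than in undifferentiated cells (counting interval 2.72 to 4.92) and Krt18 11.7-fold higher (7.67 to 18.8). Krt19, with 43 reads at day 2, was 3.48-fold higher (1.76 to 7.48). Day-15 cells exceeded day-2 sorted cells 17.0-fold for Krt8 (14.6 to 19.9), 8.81-fold for Krt18 (7.76 to 10.0) and 47.4-fold for Krt19 (34.8 to 66.2). Krt8 and Krt19 thus rose by more after day 2 than up to it, where the day-2 sorted cells were 3.12-fold (2.31 to 4.25) and 3.81-fold (1.92 to 8.21) above undifferentiated cells. For Krt18 both rises were alike within counting error, at 11.8-fold (7.67 to 18.9) up to day 2. The period from day 2 to day 15 was the longer, and no library was taken within it.

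Unfractionated AICAR cells had the highest Krt8 and Krt18 of any library, at 518 CPM (500 to 536 CPM) and 498 CPM (481 to 516 CPM), against 459 CPM (444 to 474 CPM) and 350 CPM (337 to 363 CPM) in day-15 cells without AICAR. AICAR GFP-negative cells had 301 CPM of Krt8 and 114 CPM of Krt18. Krt19, also found in stratified epithelia, was lower in both: 20.8 CPM in AICAR GFP-negative cells and 54.6 CPM in unfractionated AICAR cells, against 291 CPM in day-15 cells without AICAR. Krt19 was thus 14-fold lower in AICAR GFP-negative cells (counting interval 11.7 to 17.0) and 5.33-fold lower in unfractionated AICAR cells (4.76 to 5.99), while Krt8 was 1.13-fold higher in unfractionated AICAR cells (1.08 to 1.18).

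AICAR GFP-positive libraries disagreed on the simple keratins. Krt8 stood at 4.00, 8.57 and 192 CPM in replicates 1, 2 and 3, Krt18 at 1.88, 6.89 and 143 CPM, and Krt19 at 0.0784, 0.562 and 23.4 CPM. Replicates 1 and 2 were at or below the undifferentiated library for Krt8 and Krt19, and replicate 3 was close to AICAR GFP-negative cells, with more Krt18 and Krt19 and less Krt8 than they had. Group means of 68.1 ± 107 CPM for Krt8, 50.6 ± 80.0 CPM for Krt18 and 8.0 ± 13.3 CPM for Krt19 (SD, n = 3) describe none of the libraries.

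**Figure D3:**
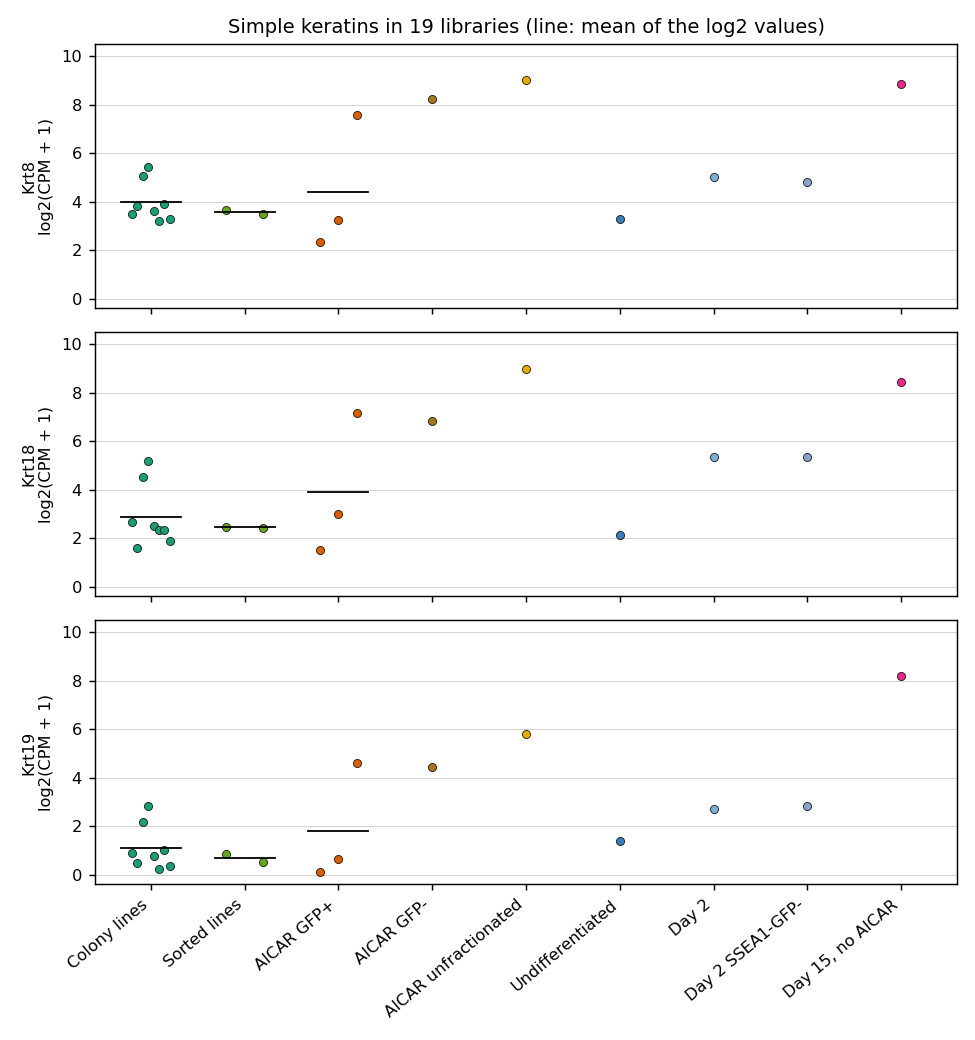
Levels of Krt8, Krt18 and Krt19 as log2(CPM + 1) in each of the 19 libraries (points), by group, with a line at the mean of the log2 values where a group has more than 1 library. AICAR GFP-positive replicate 3, the highest of its group, stands near AICAR GFP-negative cells, and colony lines 4 and 5 stand above the other 6 colony lines in all 3 panels.

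None of the simple keratins passed against day-15 cells with all 3 libraries: the log2 fold changes were -2.73 ± 1.84 for Krt8, -2.77 ± 1.89 for Krt18 and -5.24 ± 1.85 for Krt19 (edgeR adjusted p = 0.268, 0.273 and 0.0703). Intervals of 2 standard errors ran from -6.40 to 0.95 for Krt8, from -6.55 to 1.01 for Krt18 and from -8.94 to -1.55 for Krt19, so these intervals still hold large decreases. Without replicate 3 the changes were -6.10, -6.21 and -9.65 (edgeR adjusted p = 2.74e-07, 1.64e-06 and 4.08e-08). Within the first sequencing project, replicate 3 against the day-15 library gave -1.23 for Krt8, -1.26 for Krt18 and -3.61 for Krt19, as differences between single libraries with no replicate check.

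Against AICAR GFP-negative cells, 6 of the 10 genes were tested in AICAR GFP-positive cells and 0 passed, among 13821 features of which edgeR called 0 (0%). At an unadjusted p under 0.05 edgeR had 0 of the 6 genes and 3022 features, and DESeq2 called 1210 features and none of Krt8, Krt18 and Krt19, giving the other 3 genes no adjusted p. Krt8 was lower in all 3 AICAR GFP-positive libraries, with a log2 fold change of -2.19 ± 1.87 (edgeR adjusted p = 0.515). Without replicate 3, 4 of 5 genes tested passed, all lower: Krt8 at -5.57, Krt18 at -4.68, Krt19 at -5.94 and Krt5 at -4.47 (edgeR adjusted p = 1.36e-06, 4.62e-05, 7.85e-05 and 0.0170). Within the first project each fraction is 1 library, with 26 reads of Krt14 in replicate 3 and 3 reads in AICAR GFP-negative cells.

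Against undifferentiated ES cells, 6 of the genes were tested in AICAR GFP-positive cells and 0 passed, while edgeR called 5.05% of 13640 features. Those calls were 331 higher and 358 lower, or 632 higher and 227 lower when library totals alone were used for scaling. At an unadjusted p under 0.05 there were 0 of the 6 genes and 3998 features, and DESeq2 called 2094 features and none of Krt8, Krt18 and Krt19, again with no adjusted p for the others. Krt18 was 3.69 ± 2.84 higher on the log2 scale (edgeR adjusted p = 0.426) and 0.21 higher without replicate 3. Krt8 was 2.76 ± 2.50 higher with all 3 libraries (edgeR adjusted p = 0.493) and stood at -0.63 without replicate 3. Replicate 3 by itself was above the undifferentiated library for both, at 143 CPM of Krt18 and 192 CPM of Krt8, against 3.38 and 8.66 CPM in undifferentiated cells, with 1 library on each side.

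Lines expanded from the GFP-positive cells had few keratin reads. Krt5 had 0 to 3 reads in the 8 colony lines and 0 reads in both sorted lines, Krt14 had 0 to 5 reads in colony lines and 0 to 1 reads in sorted lines, and Trp63 had 2 reads in colony line 10 and 0 reads in the other 9 lines. Krt10 averaged 1.40 ± 0.547 CPM in colony lines (SD, n = 8) and 1.26 ± 0.423 CPM in sorted lines (SD, n = 2), against 0.734 CPM in undifferentiated ES cells. Its lowest, median and highest values in colony lines were 0.674, 1.31 and 2.40 CPM, a range that includes the undifferentiated library.

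Simple keratins set 2 colony lines apart from the others. Krt8 stood at 32.4 and 42.3 CPM in colony lines 4 and 5, and between 8.08 and 14.1 CPM in the other 6, with a median of 12.3 CPM over all 8. Krt18 stood at 21.9 and 35.3 CPM in lines 4 and 5, against a median of 4.35 CPM over the 8, and Krt19 at 3.55 and 6.09 CPM, against a median of 0.771 CPM. Sorted lines 1 and 2 had 11.7 and 10.2 CPM of Krt8, 4.48 and 4.39 CPM of Krt18, and 0.80 and 0.42 CPM of Krt19, against 8.66, 3.38 and 1.61 CPM in undifferentiated ES cells. Colony lines 4 and 5 thus stood above the day-2 libraries for Krt8, and line 5 came near them for Krt18, which no other line did. Markers of parietal endoderm were highest in the same pair of lines, at 742 CPM in line 4 and 1693 CPM in line 5, with a median of 447 CPM over the 8 lines and 398 CPM in undifferentiated ES cells. Mesenchyme markers summed to 128 CPM in line 4 and 24.2 CPM in line 5, with 24.9 CPM in line 1 (median of the 8 lines 11.4 CPM). Naive markers, at 4036 and 4024 CPM, lay inside the range of the 8 lines (3973 to 4120 CPM). The part of such cells in the keratin levels was not tested.

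Between colony lines and AICAR GFP-positive cells, 4 genes were tested (Krt10, Krt8, Krt18 and Krt19) and 0 passed, while edgeR called 57.9% of 12225 features (3369 higher and 3704 lower, or 2350 and 4853 with library totals). At an unadjusted p under 0.05 there were 2 of the 4 genes and 7587 features, and DESeq2 called 7099 features but not Krt10, and gave Krt8, Krt18 and Krt19 no p. Krt8 was 1.75 ± 0.798 lower and Krt18 2.14 ± 0.95 lower on the log2 scale (edgeR adjusted p = 0.0741 and 0.0678), in groups that overlapped. This result turned on single libraries. Without AICAR GFP-positive replicate 3, Krt8 was 1.61 higher in colony lines and passed (edgeR adjusted p = 0.0336). Without replicate 1 or without replicate 2, Krt8, Krt18 and Krt19 all passed as lower, and without colony line 5 Krt8 and Krt18 did. All 8 colony lines lay below replicate 3 for Krt5, Krt14, Krt8, Krt18, Krt19 and Trp63, which is a statement about that 1 AICAR GFP-positive library.

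Between sorted lines and AICAR GFP-positive cells, 3 genes were tested and 0 passed, while edgeR called 36.7% of 12593 features (2210 higher and 2407 lower, or 1455 and 3326 with library totals). At an unadjusted p under 0.05 there were 0 of the 3 genes and 6106 features, and DESeq2 called 4798 features and 0 of the 3. Krt8 was 2.44 ± 1.65 lower on the log2 scale (edgeR adjusted p = 0.282), and 0.95 higher without replicate 3, where it passed (edgeR adjusted p = 0.0420). Colony and sorted lines share the AICAR GFP-positive libraries as their comparison.

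Between colony lines and undifferentiated ES cells, 4 genes were tested and 0 passed, while edgeR called 0.0325% of 12314 features. At an unadjusted p under 0.05 there were 0 of the 4 genes and 2385 features, and DESeq2 called 380 features, neither Krt8 nor Krt18 among them, and gave Krt10 and Krt19 no adjusted p. The log2 fold changes were 1.01 ± 0.859 for Krt8, 1.55 ± 1.51 for Krt18, 0.92 ± 0.703 for Krt10 and 0.01 ± 1.34 for Krt19 (edgeR adjusted p = 0.536, 0.591, 0.490 and 0.996). An interval of 2 standard errors for Krt8 ran from -0.71 to 2.73, which leaves room for a several-fold difference.

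Levels can be set side by side between genes only per length, here as the authors' RPKM, which divides reads by gene length and library size. In day-15 cells without AICAR the order by RPKM was Krt5 (421), Krt8 (305), Krt18 (274), Krt14 (267), Krt19 (240), Krt15 (171), Krt4 (129), Krt10 (118), Krt1 (108) and Trp63 (13.9). For some pairings, type I and type II partners were close in that library. Krt8 stood at 1.11 times Krt18, Krt5 at 0.962 times the sum of Krt14 and Krt15, and Krt1 stood just below Krt10. With Krt19 added to Krt18, Krt8 stood at 0.593 times their sum, so closeness depended on the partners chosen. Krt4 was not set beside a partner.

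The ratio of Krt8 to Krt18 in RPKM was not constant. It was 1.8, 1.05 and 1.14 in AICAR GFP-positive replicates 1, 2 and 3, 2.24 in AICAR GFP-negative cells and 0.880 in unfractionated AICAR cells, against 1.11 in day-15 cells without AICAR. In colony lines its lowest, median and highest values were 1.02, 1.87 and 5.53, and lines 4 and 5 had 1.25 and 1.02, against 2.17 in undifferentiated ES cells, 0.674 in day-2 cells and 0.575 in day-2 sorted cells. Libraries with few keratin reads therefore had more Krt8 than Krt18 per length, and the day-2 and unfractionated AICAR libraries had the reverse.

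**Figure D4:**
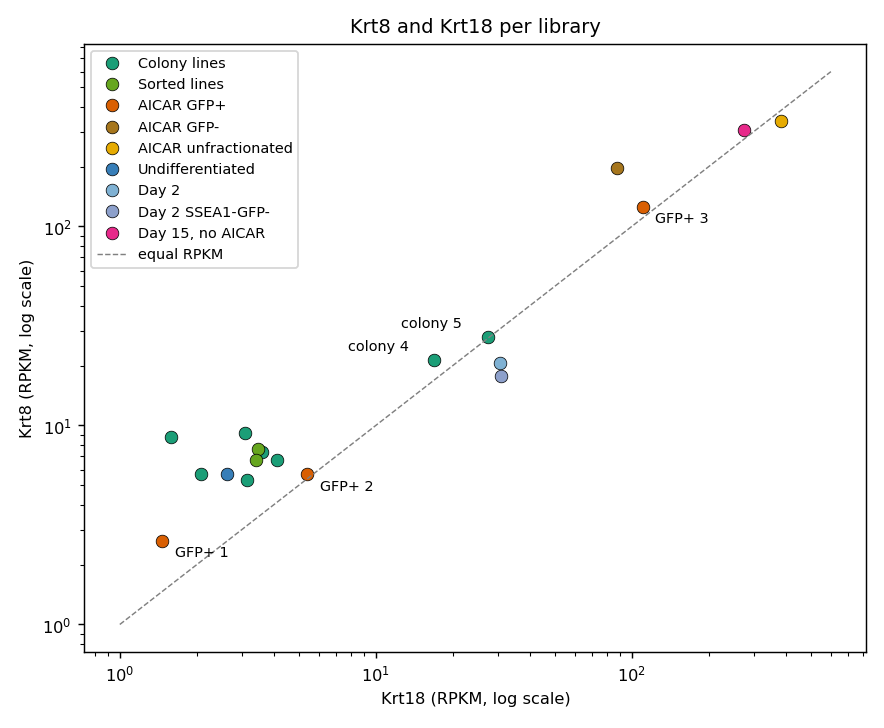
Krt8 against Krt18 in RPKM (both axes logarithmic), 1 point per library coloured by group, with a dashed line where both are equal. Points lie above the line at low levels, below it in the day-2 libraries, and near it at high levels, except AICAR GFP-negative cells (197 RPKM of Krt8 and 87.8 RPKM of Krt18).

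The make-up of keratin RNA followed the same division. Summed over all 49 keratins in the tables, the 3 simple keratins made up 89.9% of 284 RPKM in AICAR GFP-positive replicate 3, 83.3% of 362 RPKM in AICAR GFP-negative cells and 92.3% of 830 RPKM in unfractionated AICAR cells, against 34.8% of 2352 RPKM in day-15 cells without AICAR. The 6 stratified keratins made up 1.3, 0.929 and 1.18% in those AICAR libraries, against 51.6% in day-15 cells without AICAR, where the other 40 keratins held 13.6%. AICAR GFP-positive replicates 1 and 2 had sums of 6.49 and 16.6 RPKM, below the colony lines (17.7 to 75.9 RPKM) and undifferentiated ES cells (31.2 RPKM). In these low libraries other keratins held a larger share, 18.9 to 58.4% in colony lines and 66.5% in undifferentiated ES cells.

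**Figure D5:**
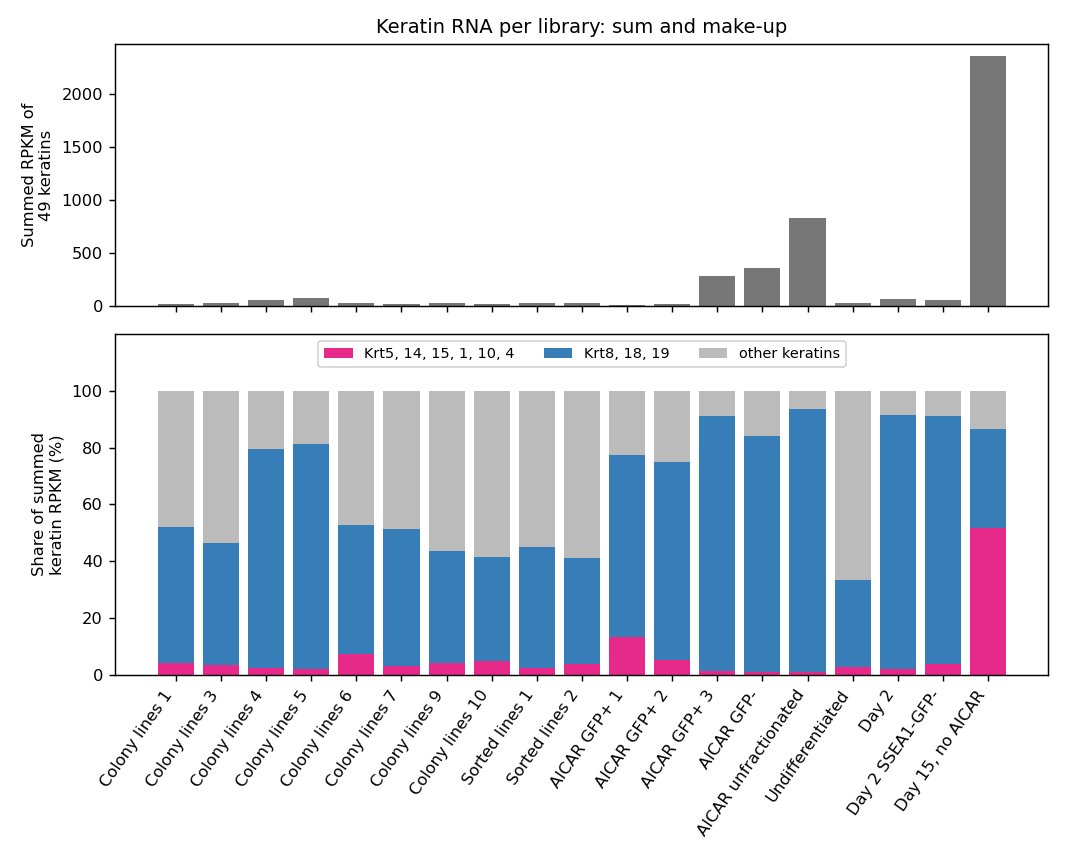
Summed RPKM of 49 keratins in each library (upper bars) and the share of that sum in percent held by the 6 stratified keratins, the 3 simple keratins and the other 40 keratins (lower bars). Stratified keratins make up 51.6% in day-15 cells without AICAR and at most 13.3% elsewhere, in AICAR GFP-positive replicate 1, whose sum is 6.49 RPKM.

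Among the other keratins, the 4 with the highest level in any library were Krt17, Krt6b, Krt7 and Krt16. Krt17, Krt6b and Krt16 are known from hair follicles and from wounded or fast-growing epidermis, and Krt7 from simple and glandular epithelia. All 4 were highest in day-15 cells without AICAR: Krt17 at 135 CPM, Krt6b at 113 CPM, Krt7 at 108 CPM and Krt16 at 36.8 CPM. Krt6b also had 385 reads (66.7 CPM) in AICAR GFP-negative cells, where Krt5 had 20 reads, 72 reads (11.5 CPM) in unfractionated AICAR cells, and 0, 0 and 161 reads in AICAR GFP-positive replicates 1, 2 and 3. Krt6b has a near-identical neighbour, Krt6a, so its count is uncertain. Krt17 kept 10 to 54 reads in every colony line, against 42 reads in undifferentiated ES cells and 8 reads in each day-2 library. Krt42, chosen after its values were seen, had its highest level in undifferentiated ES cells (19.1 CPM) and stood at 7.24 to 15.1 CPM in colony lines and 13.1 and 15.0 CPM in sorted lines, against 0.130 CPM in day-15 cells without AICAR. Krt17 fell by 6.97 ± 0.311 on the log2 scale in AICAR GFP-positive cells relative to day-15 cells (edgeR adjusted p = 0.00165), and fell by 6.83 without replicate 3 (edgeR adjusted p = 6.23e-08). Krt17 was 1 of 7 that were lower among the 11 other keratins tested, with 0 higher, where 23.2% of all features were lower and 23.1% higher. Against undifferentiated cells only 5 other keratins had the reads to be tested in AICAR GFP-positive cells. Most of the 11 therefore entered through the day-15 library, which favoured a call of lower. Without replicate 3, 10 of the 11 were lower and 0 higher, where 33% of 14879 features were lower and 30.2% higher.

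Genes that work with keratins were read from 5 lists, in the same comparison and against the same shares of all features: 23.2% lower and 23.1% higher with all libraries, and 33% lower and 30.2% higher without replicate 3. The list counts without replicate 3 were added after seeing the data. A gene with reads in the day-15 library alone passes the filter on low counts and can then hardly be called other than lower. Of 23 genes of desmosomes and hemidesmosomes, the junctions that anchor keratins, 20 were lower and 0 higher in AICAR GFP-positive cells than in day-15 cells without AICAR, with a median log2 fold change of -4.20, against -0.03 over all features tested. Without replicate 3, 20 were lower and 1 higher. Desmoplakin (Dsp), which ties keratins to desmosomes, had 9.10 to 61.8 CPM in AICAR GFP-positive libraries, against 551 CPM in day-15 cells (log2 fold change -4.20 ± 0.918, edgeR adjusted p = 0.0206). Plakoglobin (Jup) changed less, at 146 to 182 CPM in AICAR GFP-positive cells, against 272 CPM in day-15 cells (-0.66 ± 0.164, edgeR adjusted p = 0.0287). Dystonin (Dst) and integrin alpha 6 (Itga6), of the basal hemidesmosome, did not pass with all libraries: Dst averaged 303 CPM in AICAR GFP-positive cells, against 340 CPM in day-15 cells, and Itga6 averaged 290 CPM in AICAR GFP-positive cells, against 221 CPM in day-15 cells. Without replicate 3 Itga6 was 0.51 higher on the log2 scale and passed (edgeR adjusted p = 0.0095), and Dst did not (edgeR adjusted p = 0.997).

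Of the 18 genes tested for the cornified envelope and late differentiation, 16 were lower (88.9%, beside 23.2% of all features) and 0 higher, with a median of -6.25. Without replicate 3, 16 were lower and 1 higher. Of the 35 found in the tables, 17 were not tested for lack of reads. Against undifferentiated cells only 7 genes of this list had the reads to be tested in AICAR GFP-positive cells. Most of the 18 therefore entered through the day-15 library, which favoured a call of lower. Stratifin (Sfn) averaged 8.48 CPM in AICAR GFP-positive cells, against 119 CPM in day-15 cells without AICAR (-3.75 ± 0.332, edgeR adjusted p = 0.00322). Transglutaminase 1 (Tgm1), which crosslinks the envelope, averaged 5.09 CPM in AICAR GFP-positive cells, against 35.3 CPM in day-15 cells (-2.74 ± 0.498, edgeR adjusted p = 0.0130). In colony lines Tgm1 averaged 31.0 CPM and in undifferentiated ES cells 25.3 CPM, so that gene is not restricted to the day-15 library, whereas suprabasin (Sbsn) averaged 0.464 CPM in colony lines and stood at 1.03 CPM in undifferentiated ES cells, against 76.1 CPM in day-15 cells.

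Of 19 transcription factors of squamous epithelium tested, 7 were lower (36.8%, beside 23.2% of all features) and 2 higher (beside 23.1%) in AICAR GFP-positive cells than in day-15 cells, with a median of -2.07. Without replicate 3, 11 were lower and 3 higher. Sox2 was among those that were higher, at 504 to 638 CPM in AICAR GFP-positive cells, against 14.8 CPM in day-15 cells (5.34 ± 0.296, edgeR adjusted p = 0.00178). Sox2 is also a core factor of ES cells. Klf5, likewise a factor of both cell types, averaged 84.1 CPM in AICAR GFP-positive cells, against 70.8 CPM in day-15 cells, and did not pass (edgeR adjusted p = 0.221). Of 24 genes of epithelial adhesion and polarity, 5 were lower (20.8%, beside 23.2% of all features) and 2 higher (8.33%, beside 23.1%), with a median of -1.59. That count turned on replicate 3: without it 18 of the 24 were lower (75%, beside 33% of all features) and 2 higher, with a median of -2.46. Epcam was among those that were higher, at 120 CPM in AICAR GFP-positive cells, against 63.0 CPM in day-15 cells (1.00 ± 0.276, edgeR adjusted p = 0.0376). Both were below the 237 CPM of day-2 cells and the 223 CPM of day-2 sorted cells. E-cadherin (Cdh1) did not pass, at 252 CPM in AICAR GFP-positive cells, against 210 CPM in day-15 cells. Of 19 keratin partners and other intermediate filament genes, 8 were lower (42.1%, beside 23.2% of all features) and 3 higher (15.8%, beside 23.1%), with a median of -0.20, and without replicate 3 these counts were 9 and 4. Vimentin (Vim), the filament of mesenchyme, averaged 191 CPM in AICAR GFP-positive cells, against 1796 CPM in day-15 cells (-3.16 ± 0.206, edgeR adjusted p = 0.00225), and lamin B1 (Lmnb1) had 479 to 515 CPM in AICAR GFP-positive cells, against 193 CPM in day-15 cells (1.43 ± 0.173, edgeR adjusted p = 0.00531).

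The identity of the day-15 library was read from marker lists, leaving out the 10 genes themselves. The 6 remaining markers of squamous epithelium summed to 20.0 to 27.9 CPM in AICAR GFP-positive libraries and 22.0 CPM in AICAR GFP-negative cells. The sum was 113 CPM in unfractionated AICAR cells, against 383 CPM in day-15 cells without AICAR. In undifferentiated cells it was 19.5 CPM, in day-2 and day-2 sorted cells 24.0 and 23.2 CPM, and in colony lines 15.2 to 22.8 CPM. The sums in AICAR GFP-positive and GFP-negative cells were thus near those before day 15. In unfractionated AICAR cells Sfn and Perp made up most of the sum, with Dsg3 at 0.637 CPM and Dsc3 at 0, against 35.1 and 14.7 CPM in day-15 cells without AICAR, where all 6 had reads. Markers of other cells had far more reads in the day-15 library: mesenchyme markers summed to 38854 CPM (10 of 10 with reads) and parietal endoderm markers to 34987 CPM (8 of 8). Unfractionated AICAR cells had 8698 CPM of mesenchyme, 20564 CPM of parietal endoderm and 1517 CPM of visceral endoderm markers, and AICAR GFP-negative cells had 868, 58399 and 1206 CPM. Parietal endoderm markers were thus high in every library with more than 100 CPM of Krt8, from 13163 CPM upward. They reached at most 1693 CPM in the others. Other lists divided the same libraries. Visceral endoderm markers stood at 585 CPM or more, against at most 169 CPM. Mesenchyme markers stood at 231 CPM or more, against at most 128 CPM, and mesothelium markers at 134 CPM or more, against at most 95.1 CPM. The division was therefore not particular to parietal endoderm. Trophoblast markers summed to at most 38.9 CPM in AICAR GFP-positive libraries, 30.1 CPM in AICAR GFP-negative cells and 64.8 CPM in unfractionated AICAR cells, against 45.1 CPM in day-15 cells without AICAR. In day-15 cells 9 of the 10 had reads, with Hand1 at 11.3 CPM, Prl2c2 at 9.72 CPM, Tpbpa at 8.82 CPM and Gcm1 at 0, while in undifferentiated ES cells the sum was 21.3 CPM, of which Eomes held 20.3 CPM. The part of each cell type in the keratin levels was not tested.

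Features most like Krt5, Krt8 and Trp63 over the 9 group means of log2(CPM + 1) are given as a description. For Krt5 they were Mgp (Pearson r = 0.996), Islr (0.991), BC100530 (0.988), Sparcl1 (0.987) and Myh8 (0.987). For Trp63 they were the joined row Fbxl13+Lrrc17 (0.995), Aspn (0.995), BC100530 (0.993), Krtdap (0.993) and Sparcl1 (0.991). These correlations rest on the single high day-15 library: 38 of 6077 candidate features correlated with Krt5 above 0.95. For Krt8 the 5 were the joined row Ilk+Rrp8 (0.993), Gsn (0.990), Cpd (0.989), Adcy6 (0.987) and Serinc1 (0.987), all high in unfractionated AICAR cells as well. Among the 10 genes, Krt8 correlated at 0.961 with Krt18 and 0.924 with Krt19, and at 0.584 with Krt5, while Trp63 correlated at 0.978 with Krt5 and 0.942 with Krt14.

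Position in the genome did not divide the genes as their levels did. In RefSeq's gene order (GRCm38.p6), Krt8 and Krt18 are direct neighbours on chromosome 15, which also holds the stratified keratins Krt5, Krt1 and Krt4. Krt19 lies next to the basal keratin Krt15 on chromosome 11, with Krt14 and Krt10 in the same cluster of type I genes. The stratified Krt15 had 3 reads in unfractionated AICAR cells and its neighbour Krt19 had 343, against 1839 and 2247 reads in day-15 cells without AICAR. Trp63 lies apart on chromosome 16.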

How the data were processed

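RNA from 19 libraries was prepared with a kit for stranded mRNA, per the labels' protocols. The submitters' processing notes list Trimmomatic 0.3.3, the aligner TopHat2 (2.0.14) and Bowtie2 (2.2.5). The authors counted uniquely mapped reads per gene and derived RPKM values with rpkmforgenes on the RefSeq gene table of mm9, leaving 3' untranslated ends out of the RPKM lengths, per the file headers. Uniquely mapped reads can miss near-identical genes.

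From the deposited counts, CPM used the sum of each library's gene counts. Groups with replicates were tested with edgeR 4.0.16 in R 4.3.3 (TMM scaling, filterByExpr, quasi-likelihood F-test, Benjamini-Hochberg adjustment over all features, call at 0.05), which was also tested on simulated counts; DESeq2 1.42.0 was an alternative. P-values measure the spread between these libraries only. Pairs of single libraries were compared by the log2 ratio with a prior count of 2, called past 2-fold where 1 library had 100 reads, and by exact 95% counting intervals. A gene at 0 was set at a floor of 3 reads over its group. The replicate numbers shared by sorted lines and AICAR GFP-positive cells are only numbers. The 10 genes, lists and markers were chosen with earlier results of these data known. Named are all 10 genes, the 4 other keratins with the highest CPM in a library, genes from the 4 of each list with most reads over all libraries, and the 5 features most like Krt5, Krt8 and Trp63. One result is not reported here.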

Additional observations from a re-analysis of the deposited data

Results flagged for a closer look

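In 3 of 20 checks of the highest or lowest of the 8 colony lines against the others by Dixon's ratio, 1 library stood apart: Krt1 at 0.136 CPM in colony line 3, Krt4 at 0.148 CPM in colony line 4 and Trp63 at 0.282 CPM in colony line 10. Each rests on 1 or 2 reads against 0 in the other 7 lines, where the ratio is 1 whatever the number of reads. The usual rate of chance flags, about 1 in 20 groups, therefore does not apply to them.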

How the results depend on the processing

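The comparison with day-15 cells without AICAR kept its direction for all 10 genes in every setting run, with 7 to 10 genes passing when 1 AICAR GFP-positive library was left out, and no gene changed direction under another scaling. Library totals alone moved the median log2 fold change of all features by 0.18 (AICAR GFP-positive against undifferentiated cells), -0.15 (colony lines against AICAR GFP-positive cells) and -0.17 (sorted lines against AICAR GFP-positive cells). Single libraries decided the rest, AICAR GFP-positive replicates 1, 2 and 3, colony lines 5, 7 and 9 and both sorted lines among them, and the cause was not tested. Counts within the first project have replicate 3 as the only AICAR GFP-positive library and take its spread from the colony and sorted lines, so they are no replicated test of AICAR GFP-positive cells. Against AICAR GFP-negative cells 0 genes passed, 1 with all 19 libraries in 1 fit, 1 within the first sequencing project (Krt18 then 0.32 and Krt19 0.16 on the log2 scale), and 0 to 4 with 1 library left out. Against undifferentiated cells 5 passed within the first project and 0 in each fit with 1 library left out, where Krt8 ran from -0.63 to 3.33 and Krt19 from -2.43 to 2.67. For colony lines against AICAR GFP-positive cells 1 passed with no filter on low counts, 1 with all 19 libraries in 1 fit, 6 within the first project, and 0 to 3 with 1 library left out, where Krt8 ran from -2.31 to 1.61, Krt18 from -2.77 to 1.31 and Krt19 from -2.64 to 2.40. Between sorted lines and AICAR GFP-positive cells 6 passed within the first project and 0 to 1 with 1 library left out, where Krt10 ran from -0.030 to 0.66, Krt8 from -3.01 to 0.95 and Krt18 from -3.89 to 0.16. Deviations of same-numbered libraries in these 2 groups correlated at 0.03, so the numbers do not pair them. With the replicate number as a block 1 gene passed (Krt8 at 1.00, Krt18 at 0.31) and 6804 features, against 1 gene (Krt8 at 0.95, Krt18 at 0.16) and 6514 features in the same 4 libraries with no block, an alternative chosen after seeing the data. For colony lines against undifferentiated cells Krt19 ran from -0.69 to 0.18 with 1 line left out. Counts over all features also moved. With 1 library left out they ran from 2863 to 9413 against day-15 cells (6883 with all), from 0 to 3953 against AICAR GFP-negative cells (0 with all), from 0 to 4158 against undifferentiated cells (689 with all), from 321 to 6514 for sorted lines (4617 with all; 321 and 387 without sorted line 1 or 2, 6514 without replicate 3) and from 0 to 118 for colony lines against undifferentiated cells (4 with all; 118 without line 9 and 16 without line 7). With all 19 libraries in 1 fit the count was 3548 against AICAR GFP-negative cells, 4304 against undifferentiated cells and 1 for colony lines against undifferentiated cells. Within the first project it was 1698 against AICAR GFP-negative cells and 4239 against undifferentiated cells, and with no filter 2 and 1038. Low read numbers limit Krt15, Krt1, Krt4 and Trp63 outside the day-15 library.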
